A study of Mus musculus with 6 samples.

Results

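Lgmn, Golga5, Chga, Itpk1, Moap1, Tmem251, Ubr7, Btbd7, Unc79 and Prima1 are neighbouring genes on mouse chromosome 12. Together they span chr12:102394082-103242719 (mm10), a stretch of 848.638 kb. These 10 genes of the 24288 gene symbols in the expression table were listed as a run of lowered genes, by their position and by their lower RNA level in cells without Smad2 and Smad3. The values that chose them are the values described here, so the difference between genotypes is given for them as a description, with no test. The data go against the description of the whole stretch as lowered. Among them 5 were at 49.8% to 63.0% of the wild-type level, whereas the other 5 were at 87.0% to 124%. They are therefore called the Lgmn to Prima1 neighbours in what follows.

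Smad2 and Smad3 carry signals of Nodal and activin from receptors at the cell surface to the genome, where they act with other transcription factors. RNA was sequenced from day 2 epiblast-like cells (EpiLCs), which are embryonic stem cells (ESCs) moved for 48 h into medium with activin A (20 ng/ml), Fgf2 (12 ng/ml) and 1% knockout serum replacement (KSR) and thereby brought to a state like that of the epiblast soon after implantation. Wild-type (WT) EpiLCs came from the CCE line of strain 129/Sv//Ev. Double knockout (DKO) EpiLCs of the same strain came from 1 clone, KT15.1F6, made from Smad2 tm1Rob/tm1Rob ESCs by removing the region around exon 1 of Smad3 with a Cas9 nickase. Each genotype gave 3 libraries (n = 3) from separate differentiations of its single line, so the knockout and any other difference between the lines cannot be told apart, and the spread between libraries is that of repeated differentiations. RNA alone was analysed, so the copy number of the stretch was not measured.

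The libraries held 57644143 to 63046034 reads over 1 entry per gene. Values are normalized reads, meaning reads over the whole gene body, introns included, divided by 1 size factor per library. Smad3 averaged 839 ± 37.0 in WT and 23.6 ± 6.16 in DKO EpiLCs (normalized reads, mean ± SD, n = 3), whereas Smad2, read over its whole gene body, was at 4520 ± 86.3 and 5062 ± 109. All 10 markers of epiblast-like cells were detected, and their summed level was 126562 to 131005 in WT and 116055 to 117583 in DKO EpiLCs, with 3 of the 10 called lower and 1 called higher. Dnmt3b, not called, made up most of this sum (mean 70390 in WT and 65421 in DKO), so the sum says little about the other markers. Markers of naive ESCs were called higher for 7 of 9 (summed level 3774 to 4016 in WT and 6477 to 6695 in DKO), as were those of trophoblast for 7 of 7 tested (432 to 467 and 1061 to 1235), and the part of this difference in cell state in the values of the neighbours was not tested. In such bulk RNA, fewer cells of a type and less RNA per cell cannot be told apart.

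The 10 genes have different jobs, and none is a textbook member of the Nodal pathway. Lgmn belongs to the lysosome, Tmem251 and Golga5 to the Golgi, and Chga to the dense-core granules of secretory cells. Itpk1 makes higher inositol phosphates, Moap1 acts in mitochondrial apoptosis, Ubr7 and Btbd7 carry domains found in ubiquitin ligases, Unc79 is part of a neuronal ion channel complex, and Prima1 anchors an enzyme at the synapse. Neighbouring genes of mammals often start back to back from a shared stretch of DNA, with one gene read to the left and the other to the right. Such a head-to-head start region can drive both genes, and it can also drive them unequally.

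Head-to-head starts with a member occur at 2 places in the stretch, and their intergenic sequences are shown because the genes on either side of them differed widely in one case and little in the other. Both are given on the plus strand of GRCm38.p6, the assembly of mm10, from the end of the minus-strand gene to the start of the plus-strand gene as RefSeq places them. The first, at chr12:102743662-102743718, is the whole interval of 57 bases between Moap1 and Tmem251. The second, at chr12:102757811-102757974, is the interval of 164 bases between AK010878 (named Gon7 in newer annotation, a subunit of a complex that modifies transfer RNAs) and Ubr7.
Moap1 and Tmem251: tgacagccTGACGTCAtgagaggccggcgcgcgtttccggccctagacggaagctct
AK010878 and Ubr7: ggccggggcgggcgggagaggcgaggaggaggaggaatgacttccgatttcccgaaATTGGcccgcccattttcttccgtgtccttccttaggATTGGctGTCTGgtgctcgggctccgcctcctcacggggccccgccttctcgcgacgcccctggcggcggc
Capitals mark matches to the motifs searched on both strands. In the first interval they mark the cAMP response element TGACGTCA, which was added to the search after the sequence was seen. In the second they mark the CCAAT box read from the other strand (ATTGG, at 2 places) and the Smad box CAGAC read from the other strand (GTCTG, at 1 place). GC content was 64.9% in the first interval and 68.3% in the second.

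RefSeq promoter windows, from 250 bases before to 50 after a start, were found for all 10 genes. Those of Unc79 (chr12:102948609-102948908) and Prima1 (chr12:103242097-103242396) lie inside the gene bodies given here and do not reach their outer ends. A Smad box lay in 5 of the 10 windows, beside 49.7% of all 27025 promoter windows of the same length. The CCAAT box was in 2 of the 10 (38.0% of all windows), the Ets site CCGGAAG in 1 (9.14%), and the octamer ATGCAAAT and the Otx2 site TAATCC in 0 (1.77% and 7.15%). The cAMP response element was in 2 of the 10 and in 1.85% of all windows, but those 2 windows are those of Moap1 and Tmem251, which overlap. A match of letters is a description and not a bound site. The windows of the neighbours had a median GC content of 68.3% and a median of 32 CpG, against 52.7% and 7 over all windows. Itpk1 had the most GC-rich window of the 10 (85.3%, 55 CpG) and Unc79 the least (59.7%, 8 CpG).

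An entry was called lower or higher when limma gave a Benjamini-Hochberg adjusted p under 0.05 over all entries and the fold change exceeded 1.5. By this rule 5 of the 10 neighbours, Itpk1, Moap1, Ubr7, Unc79 and Prima1, were called lower in DKO EpiLCs and 0 were called higher. Over the 17038 genes tested 8.03% were called lower and 7.34% higher, and nothing is read from the contrast of these shares because the same contrast chose the genes. All 3 DKO values lay under all 3 WT values for 6 of the neighbours (29.3% of all genes tested) and above them for 2 (29.7%). The values just inside and just outside the fold limit of -0.58 on the log2 scale were those of Unc79, at a log2 fold change of -0.66, and of Chga, at -0.20.

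**Figure D1:**
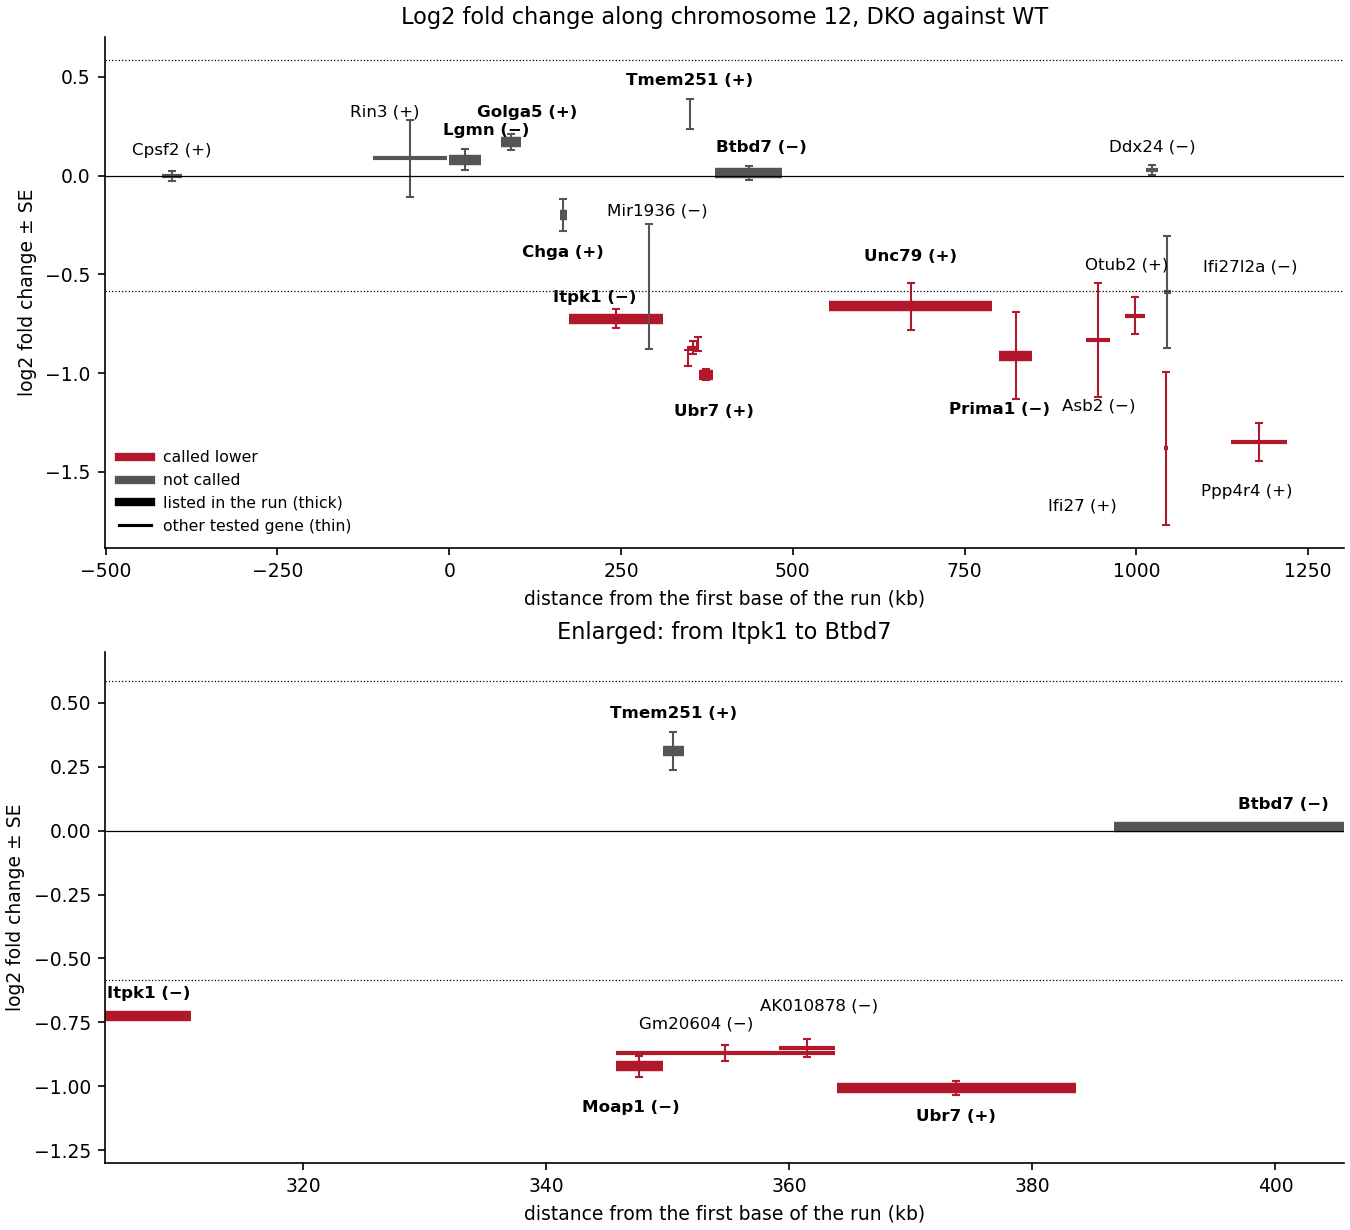
Log2 fold change (DKO against WT, ± SE) on the y axis against distance from the first base of Lgmn in kb on the x axis, with each gene drawn over its gene body and its strand given in parentheses. Thick bars are the 10 neighbours, thin bars are other tested genes, red marks genes called lower, and dotted lines mark the 1.5-fold limits. In the enlarged lower panel Tmem251 (0.31) sits above zero between Moap1 (-0.92) and Ubr7 (-1.01).

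Ubr7 (NM_025666, chr12:102757975-102777701, plus strand), a ubiquitin ligase with a UBR box, had the most reads of the 10 and the largest difference. WT libraries held 14220, 14593 and 14241 normalized reads and DKO libraries held 7268, 7315 and 6837. The 3 DKO libraries lay close together and far under every WT library. The DKO mean was 49.8% of the WT mean, a log2 fold change of -1.01 ± 0.03 (SE). Per kb of gene body Ubr7 was also first among the 10 in WT EpiLCs, at 727 normalized reads per kb.

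Moap1 (NM_001142937, chr12:102739830-102743661, minus strand), a partner of the death effector Bax, was second per length in WT EpiLCs at 426 normalized reads per kb. It was at 1657, 1634 and 1609 normalized reads in WT and at 843, 897 and 845 in DKO libraries. The groups did not overlap, and the DKO mean was 52.7% of the WT mean (log2 fold change -0.92 ± 0.04). Its whole gene body is also counted in a read-through entry described with the genes between the neighbours.

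Itpk1 (NM_172584, chr12:102568583-102704869, minus strand), the inositol tetrakisphosphate kinase that feeds the synthesis of higher inositol phosphates, differed less. The WT libraries held 1299, 1269 and 1386 normalized reads and the DKO libraries 774, 839 and 779. Every DKO value was under every WT value, and the DKO mean was 60.5% of the WT mean (log2 fold change -0.72 ± 0.05).

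Unc79 (NM_001081017, chr12:102947383-103184228, plus strand) encodes a large subunit of the NALCN complex, a sodium leak channel that sets the resting potential of neurons. Its WT libraries held 175, 183 and 140 normalized reads and its DKO libraries 124, 94.0 and 96.4. The groups did not overlap, but the spread was wide beside the difference, with a DKO mean at 63.0% of the WT mean and a log2 fold change of -0.66 ± 0.12. Over its gene body of 236.846 kb this was only 0.702 normalized reads per kb in WT EpiLCs.

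Prima1 (NM_133364, chr12:103194453-103242719, minus strand), the proline-rich membrane anchor of acetylcholinesterase, had the fewest reads. WT libraries held 38.1, 48.9 and 33.1 normalized reads and DKO libraries 21.5, 24.2 and 16.6. The DKO libraries were again all lower, at 51.8% of the WT mean, and the log2 fold change of -0.91 ± 0.22 had the largest SE of the 10.

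Tmem251 (NM_177140, chr12:102743719-102745406, plus strand), which encodes a Golgi protein needed to tag lysosomal enzymes with mannose 6-phosphate, went the other way. WT libraries held 231, 228 and 239 normalized reads and DKO libraries 279, 291 and 296. All DKO values were above all WT values, at 124% of the WT mean (log2 fold change 0.31 ± 0.07), short of the 1.5-fold limit.

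Golga5 (NM_001199004, chr12:102469109-102498015, plus strand), the golgin that tethers vesicles at the Golgi rim, was at 1238, 1255 and 1285 normalized reads in WT and at 1408, 1380 and 1460 in DKO libraries. The groups did not overlap either, with the DKO mean at 112% of the WT mean (log2 fold change 0.17 ± 0.04). Its other entry in the table gave nearly the same value (0.16 ± 0.04).

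Lgmn (NM_011175, chr12:102394082-102439728, minus strand), the lysosomal asparaginyl endopeptidase legumain, was at 528, 527 and 566 normalized reads in WT and at 575, 573 and 565 in DKO libraries. These groups overlapped, and the log2 fold change was 0.08 ± 0.05. Btbd7 (NM_172806, chr12:102780797-102878471, minus strand), a BTB domain protein known from the branching of epithelia, held 2190, 2366 and 2308 normalized reads in WT and 2383, 2191 and 2353 in DKO libraries. Its groups overlapped throughout, with a log2 fold change of 0.01 ± 0.04, although Ubr7 ends only 3.095 kb away.

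Chga (NM_007693, chr12:102554941-102565027, plus strand), which encodes chromogranin A of dense-core granules, lay between these 2 kinds of gene. It was at 223, 224 and 237 normalized reads in WT and at 196, 200 and 200 in DKO libraries. All DKO values were under the WT values, but the difference was small, at 87.0% of the WT mean (log2 fold change -0.20 ± 0.08).

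**Figure D2:**
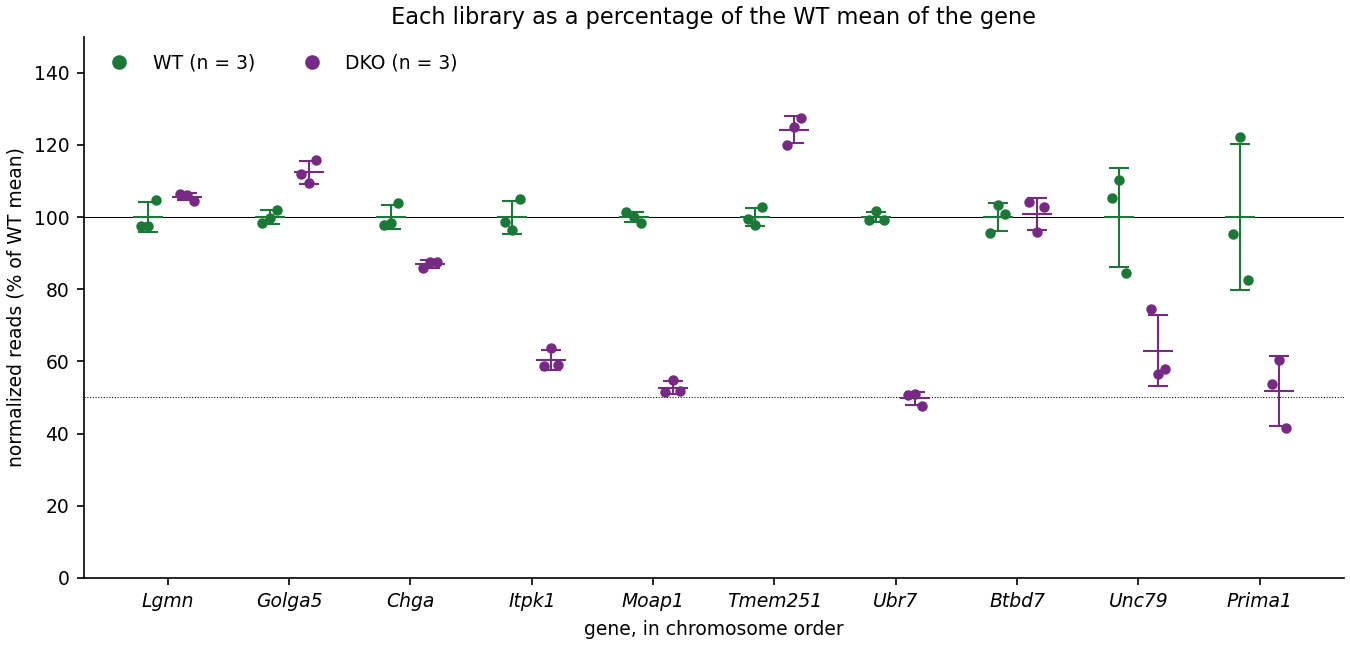
Normalized reads of each library as a percentage of the WT mean of its gene on the y axis, with the 10 genes in chromosome order on the x axis. Points are libraries (3 WT in green, 3 DKO in purple), long and short horizontal marks show the mean and SD, the solid line marks 100% and the dotted line 50%. DKO libraries of Ubr7 sit at the dotted line, those of Btbd7 at the solid line and those of Tmem251 above it.

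The question put to these genes was whether the difference in RNA was even or uneven along the stretch. Log2 fold changes of the 10 ran from -1.01 to 0.31 with a median of -0.43 and an SD of 0.51, whereas the SE of a single gene was 0.03 to 0.22 (median 0.05). Genes called lower and genes not called were interleaved from Itpk1 onwards. Of the 9 steps from one neighbour to the next, 4 exceeded the size of the 1.5-fold limit.

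From Moap1 to Tmem251 the log2 fold change rose by 1.23 ± 0.09 across 0.057 kb. From Tmem251 to Ubr7, 12.568 kb further on, the step was -1.32 ± 0.08, the largest of the 9. From Ubr7 to Btbd7 it was 1.02 ± 0.05, and from Btbd7 to Unc79 it was -0.68 ± 0.13. These SE treat the genes of a step as independent, and the steps are descriptions with no test. Strand did not sort the genes, since 3 of the 5 on the minus strand and 2 of the 5 on the plus strand were called lower.

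Between the neighbours lie 4 other genes of the table, of which 3 had enough reads to be tested. AK010878 was at 2442, 2402 and 2364 normalized reads in WT and at 1295, 1361 and 1339 in DKO libraries. It was called lower, at 55.4% of the WT mean (log2 fold change -0.85 ± 0.04). Gm20604, a read-through entry that covers Moap1, AK010878 and what lies between them, was called lower at 54.7% (log2 fold change -0.87 ± 0.03), and most of its reads are those of these genes. Mir1936, a microRNA gene inside an intron of Itpk1 whose reads cannot be told apart from those of Itpk1, was not called (13.5 ± 0.993 against 8.96 ± 2.26 normalized reads, log2 fold change -0.56 ± 0.32). Cox8c was not tested.

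The read-through entry gives a check on strand at Tmem251, which lies inside it on the other strand. With the reads of Moap1 and AK010878 taken away, 215, 212 and 186 normalized reads remained in WT and 119, 116 and 140 in DKO libraries. In all 6 libraries this remainder was smaller than the Tmem251 value, which it would contain if both strands had been counted together. The remainder in DKO was 61.3% of that in WT EpiLCs, while Tmem251 on the opposite strand was at 124%. Read as strand-specific counts, the minus-strand value of the interval was lower and the plus-strand value higher in DKO than in WT libraries.

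To see how far genes that start head to head moved together, all 675 pairs of tested protein-coding genes with starts up to 1000 bases apart were compared. In 35 pairs at least 1 gene was called lower. Both genes were called lower in 6 of these pairs (17.1%), and in 13 pairs (37.1%) the partner of a lower gene was above zero. The median absolute difference of log2 fold change within a pair was 0.17 and the 95th percentile 0.83. Moap1 and Tmem251, at a difference of 1.23, stood at the 97.8th percentile, and 16 of the pairs, this one included, differed by at least as much. AK010878 and Ubr7, both called lower, differed by -0.16 ± 0.04 and stood at the 47.7th percentile. Moap1 and Ubr7 were listed by position and lower RNA in this same contrast, whereas the 675 pairs were collected without regard to it. That choice alone can raise the rank of a pair with such a gene, so the percentiles are descriptions only. The ranks also take no account of the SE of each difference. Pairs are not independent replicates, and no test was run across them.

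**Figure D3:**
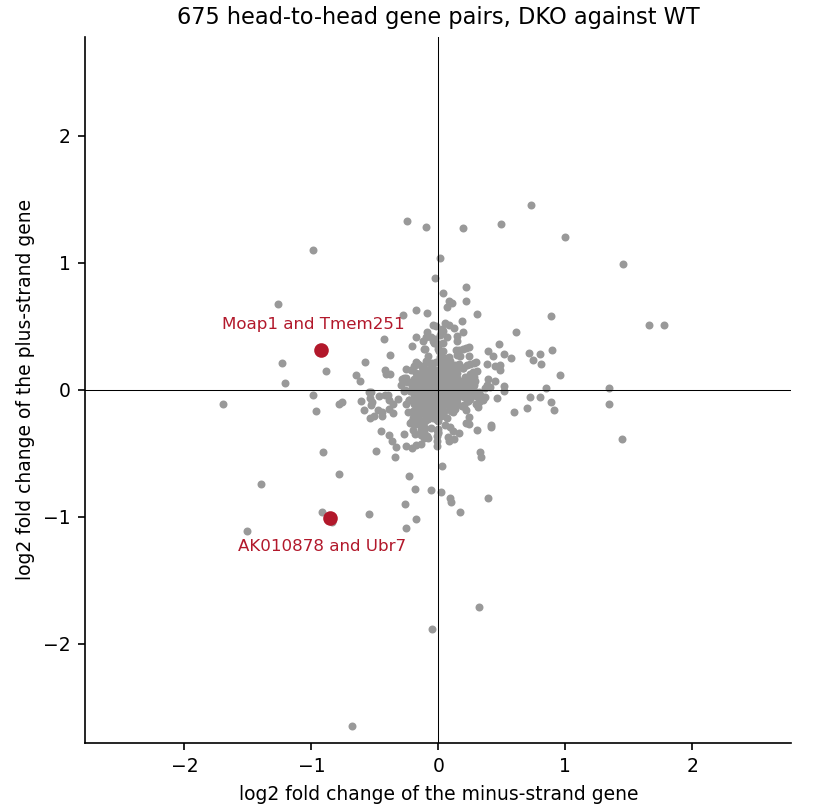
Log2 fold change (DKO against WT) of the minus-strand gene on the x axis and of the plus-strand gene on the y axis for 675 head-to-head pairs, each point a pair. In red, AK010878 and Ubr7 sit at the lower left with both genes lower, while Moap1 and Tmem251 sit at the upper left, with Moap1 at -0.92 and Tmem251 at 0.31.

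The edges of the stretch differed from each other. On the Lgmn side, the 3 nearest tested genes were not called. They are Rin3 (log2 fold change 0.09 ± 0.20), the polyadenylation factor gene Cpsf2 (0.00 ± 0.03) and Atxn3 (-0.19 ± 0.03). Of the 15 tested genes on that side, 0 were called lower and 1 higher, with a median of -0.08. On the Prima1 side, 4 of the 15 were called lower and 3 higher, with a median of -0.03. Asb2 (17.6 ± 1.37 against 9.48 ± 0.957 normalized reads, log2 fold change -0.83 ± 0.29) and the deubiquitinase gene Otub2 (247 ± 5.16 against 151 ± 18.4, -0.71 ± 0.09) came next after Prima1 and were called lower. The RNA helicase gene Ddx24 followed at 0.03 ± 0.03. Further on, 2 genes chosen after their values were seen were also called lower. One is Ifi27, with few reads (13.8 ± 5.69 against 4.59 ± 1.70 normalized reads, -1.38 ± 0.39). The other is Ppp4r4, a regulatory subunit of protein phosphatase 4 (419 ± 63.2 against 164 ± 17.7, -1.35 ± 0.10). Genes called lower thus continued past Prima1, again interleaved with genes that were not called. The 3 genes called higher on that side lay beyond Ppp4r4.

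Chromosome 12 as a whole did not share the difference. Of its 650 tested genes 38 were called lower and 69 higher, with a median log2 fold change of 0.01. For comparison, a segment of chromosome 6 between 70765720 and 77979815, itself picked out from the same contrast, was used. Of its 41 tested genes 30 were called lower and 38 were below zero, against 5 and 6 of the 10 neighbours. Its median was -0.89 with a range from -2.28 to 0.42, and its SD of 0.45 was close to the 0.51 of the neighbours, while its median absolute deviation was 0.15 against 0.49. Among genes that averaged 100 normalized reads or more, 26 of 32 in the segment were called lower and 32 of 32 were below zero, against 4 and 5 of 9 neighbours. With that minimum the SD was 0.29 in the segment and 0.50 among the neighbours, and the median absolute deviation was 0.10 and 0.46. These are descriptions, with no test of the difference.

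**Figure D4:**
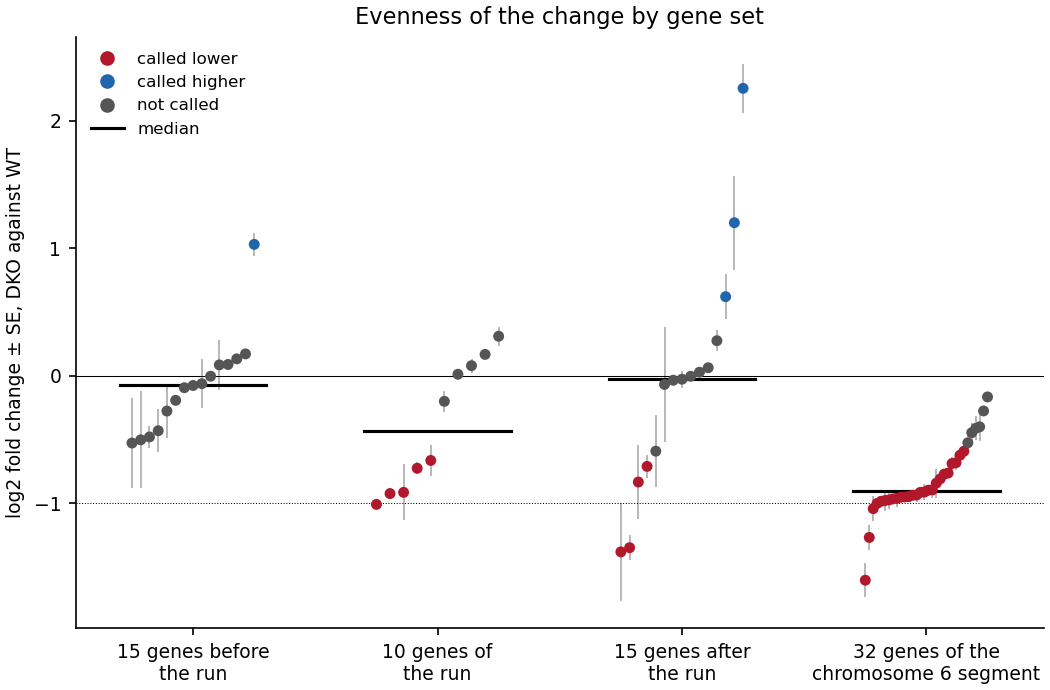
Log2 fold change (DKO against WT, ± SE) on the y axis for 4 sets of genes on the x axis, each sorted from low to high, with a horizontal bar at the median and a dotted line at -1. The 32 genes of the chromosome 6 segment with a mean of 100 normalized reads or more lie between -1.60 and -0.16 around a median of -0.90, whereas the 10 neighbours split between values of about -1.01 to -0.66 and values from -0.20 to 0.31.

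Genes that work with each neighbour but lie outside the stretch were not used to choose it, so their adjusted p-values are given. The lists were, however, chosen with earlier results of these data known, so these are not p-values of lists fixed beforehand. All but 3 of those tested (Trip11, Ptprn2 and Btbd6, not called) lie on other chromosomes, and Trip11 of the golgin list is also among the 15 genes on the Lgmn side. In 10 lists, 1 for each neighbour, 102 of 111 listed symbols were found with enough reads, and 7 were called lower and 1 higher. The rest were absent under the listed name or had too few reads. This share of 7.84% stands beside 15.4% of all genes tested. Lists of golgins (14 genes tested, for Golga5), of mannose 6-phosphate tagging (9, for Tmem251), of UBR box and N-degron ligases (10, for Ubr7), of BTB domain and Cul3 ligase genes (13, for Btbd7) and of cholinesterases with their anchors (2, for Prima1) had 0 called genes. Bche, the butyrylcholinesterase gene of the last list, was at 308 ± 7.77 in WT and 257 ± 6.00 normalized reads in DKO EpiLCs (log2 fold change -0.26 ± 0.07). Bax, the partner of Moap1, was at 6494 ± 87.7 and 6597 ± 79.9.

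In the list of Unc79 all 3 tested genes were called lower in DKO EpiLCs, and they lie on 3 other chromosomes. The list held 6 symbols, but Nalf1 and Nalf2 are newer names of Fam155a and Fam155b. Nalcn, the pore of the channel, was at 198, 175 and 184 normalized reads in WT and at 131, 123 and 115 in DKO libraries (log2 fold change -0.59 ± 0.10, limma adjusted p = 1.11e-05). Unc80, which binds Unc79 in the complex, was at 137, 119 and 125 in WT and at 59.2, 49.9 and 47.2 in DKO libraries (-1.27 ± 0.13, limma adjusted p = 4.05e-09). Fam155a, an auxiliary subunit, was at 115, 103 and 112 in WT and at 52.7, 68.3 and 66.3 in DKO libraries (-0.81 ± 0.13, limma adjusted p = 8.62e-06). In each of these genes every DKO library was lower than every WT library, as for Unc79 itself, which was chosen from this contrast. Over all genes tested 8.03% were called lower, and 29.3% had every DKO value under every WT value. Nalcn lay close to the fold limit and its call failed when WT replicate 1 (-0.54) or DKO replicate 3 (-0.54) was left out, and with a pseudocount of 10 (-0.56).

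Markers of neural or neuroendocrine cells moved beside this list. Of 10 tested, 4 were called lower (log2 fold changes of -1.41 for Sox1, -0.62 for Syp, -2.04 for Snap25 and -0.94 for Syt1) and 1, Pax6, was called higher. Their summed level was 3512 to 3535 in WT and 3488 to 3631 in DKO libraries, and 0 of the 10 were at 0 in all libraries. Most of this sum came from Stmn2 (mean 2039 in WT and 2303 in DKO) and Tubb3 (766 and 687), which were not called. The sum therefore says little about the other markers. Their part in the values of Unc79, Prima1 and the channel genes was not tested.

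In the list of Chga, 2 of 9 tested genes were called lower, both of them convertases that cut prohormones in dense-core granules. Pcsk1 was at 68.2 ± 10.6 in WT and 34.7 ± 10.9 normalized reads in DKO EpiLCs (log2 fold change -0.998 ± 0.202, limma adjusted p = 1.34e-04), and Pcsk2 was at 150 ± 10.2 and 49.5 ± 6.87 (-1.59 ± 0.13, limma adjusted p = 3.88e-11). In the list of Lgmn, 1 of 14 was called lower, the cathepsin gene Ctso (36.7 ± 4.64 against 7.37 ± 0.918, -2.17 ± 0.26, limma adjusted p = 5.73e-08). In the list of Moap1, 1 of 12 was called higher, the tumour necrosis factor receptor gene Tnfrsf1a (126 ± 18.5 against 226 ± 7.07, 0.85 ± 0.10, limma adjusted p = 4.70e-08). Smaller differences short of the 1.5-fold limit were present in both lists, such as Ctsl, which encodes cathepsin L, at -0.51 ± 0.03 (limma adjusted p = 4.03e-13) and Bcl2l1 at 0.32 ± 0.05 (limma adjusted p = 1.39e-05), both named after their values were seen.

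In the list of Itpk1, 1 of 16 was called lower, the trisphosphate kinase gene Itpkb (22.9 ± 4.90 against 12.8 ± 2.27 normalized reads, log2 fold change -0.79 ± 0.27, limma adjusted p = 0.0151). This call failed when WT replicate 2 (-0.62) or DKO replicate 1 (-0.64) was left out, and with a pseudocount of 10 (-0.52). Ippk, which acts after Itpk1 in the making of higher inositol phosphates, was at 2066 ± 58.6 and 2091 ± 44.9 normalized reads.

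**Figure D5:**
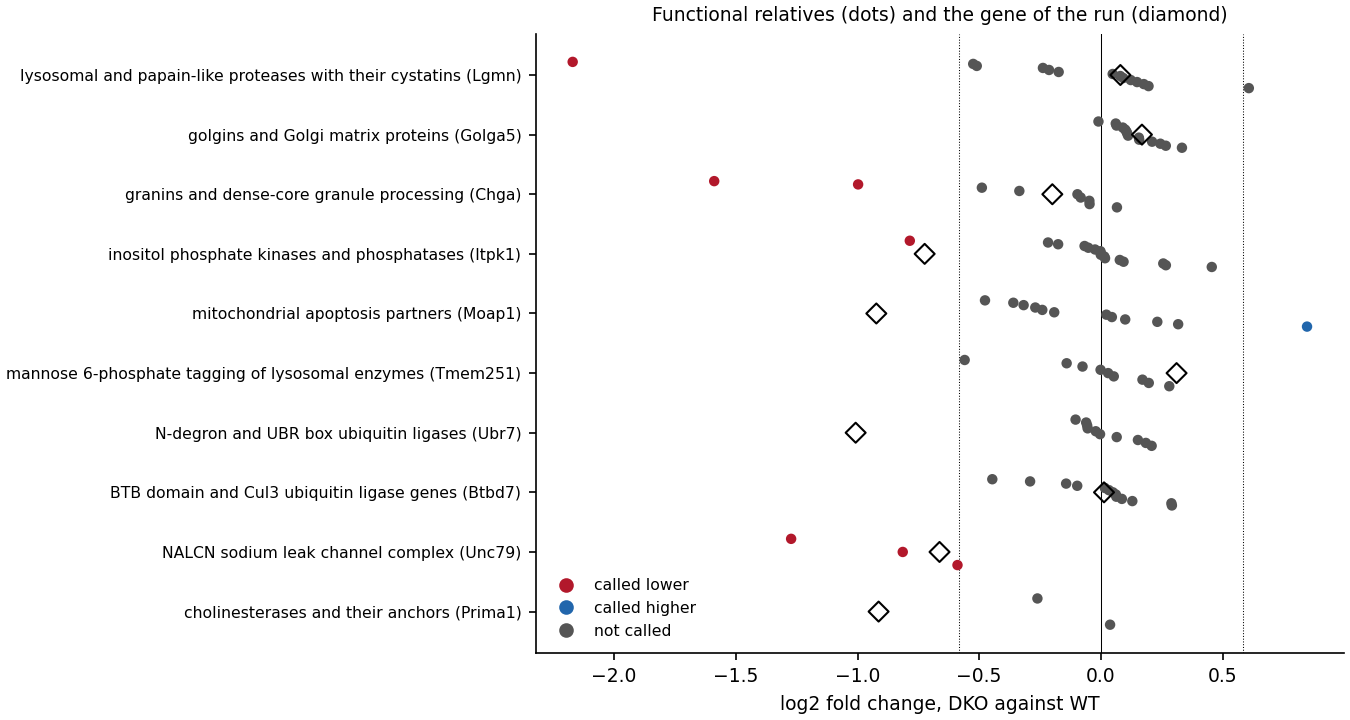
Log2 fold change (DKO against WT) on the x axis for the tested genes of the 10 functional lists on the y axis, with the neighbour each list belongs to in parentheses. Dots are list genes (red called lower, blue called higher, grey not called), open diamonds are the neighbours and dotted lines mark the 1.5-fold limits. The diamonds of Ubr7 (-1.01) and Moap1 (-0.92) sit to the left of every gene of their lists, whereas that of Unc79 (-0.66) lies among the channel genes.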

How the data were processed

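Total RNA depleted of ribosomal RNA was made into stranded libraries from 3 WT and 3 DKO differentiations and sequenced paired-end over 75 cycles, per the labels. The authors, as their methods state, filtered ribosomal reads with bowtie2, aligned to mm10 with STAR, removed duplicates with Samtools and counted reads over refGene gene bodies. Software versions, and whether counting was strand-specific, are not given in the sources used here. The deposited signal values are counts of reads that the authors scaled by a single size factor in each library and did not scale for length. The authors' second table holds their own DESeq2 comparison (means, fold changes, errors, test statistics and p-values) and was not used.

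Each value was a whole multiple of 1 step per library (100% of values within 0.01 of a whole number, size factors 1.76 to 1.93), which gave back the reads. Between 59.4% and 60.6% of counts were even, as when both mates of a pair are counted, and reads are not independent molecules. Of 33812 rows, 138 without a symbol (0.517% of reads) were left out. RefSeq positions were found for 98.9% of rows. For genes with several entries, the one with the highest total was used.

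limma 3.58.1 (R 4.3.3), with a variance trend, was fitted to log2(value + 1) over 25361 entries that passed filterByExpr of edgeR 4.0.16. Fold changes on that scale understate those of entries with few reads. Called means an adjusted p under 0.05 over all entries and a fold change over 1.5. Alternatives were edgeR, DESeq2 1.42.0 and voom on the recovered reads, other scalings, pseudocounts of 0.1 and 10, other filters, a replicate block, and leaving out each library. Each fit was tested on simulated data. The neighbours, the functional lists, the markers and the tests were chosen with earlier results of these data known. Named genes are the 10 neighbours, tested genes within the stretch, the 3 nearest on each side, Smad2 and Smad3, and up to 3 called genes per functional list; any other gene is an illustration chosen after its values were seen.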

Additional observations from a re-analysis of the deposited data

How the results depend on the processing

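The 5 neighbours called lower were Itpk1, Moap1, Ubr7, Unc79 and Prima1 under each other scaling, tool and pseudocount, without a filter on low values, with 1 entry per gene, and without each library in turn. With a minimum mean of 100 normalized reads 4 were called, as Prima1 was not tested, and with no fold limit (added after seeing the data for the whole table) 6 were lower. The SD of the log2 fold changes stayed between 0.48 and 0.54, and the difference between Tmem251 and Moap1, whose comparison was added after seeing the data, between 1.20 and 1.26. Only Btbd7 took both signs among the neighbours (-0.02 to 0.05).

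Of all entries tested 3904 were called. With the minimum mean of 100 this was 1923, and with no fold limit 13977. Of the functional lists 8 genes were called, and with the minimum mean of 100, which leaves fewer genes tested, 2. Without each library in turn, entries ranged from 3775 to 3852, neighbours called lower from 5 to 5, the SD from 0.48 to 0.54, the difference between Tmem251 and Moap1 from 1.20 to 1.26, and list genes called from 7 to 9. Same-numbered WT and DKO libraries did not deviate together (r = 0.00881, -0.0293 and 0.0365 over 11930 genes). With 3 libraries per group this does not settle whether same-numbered differentiations were run together. With the replicate number as a block 3913 entries, 5 neighbours and 8 list genes were called.

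Depth limits Prima1 and Unc79 most. With 33.1 to 48.9 normalized reads of Prima1 in WT libraries, its log2 fold change moved between -1.04 and -0.70, and that of Unc79 between -0.79 and -0.59.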
